A study of Mus musculus with 23 samples.

Results

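The genes described here are 8 genes of phosphatidylcholine and phosphatidylethanolamine synthesis, Chka, Chkb, Pcyt1a, Pcyt2, Etnk1, Cept1, Pemt and Slc44a1, out of the 14651 genes measured in brown adipose tissue (BAT). They were picked by symbol, and all 8 were in the table. They were chosen with results of these data in view, since Chka had been singled out by its change in cold in both genotypes. The values of the 8 genes at 4°C against RT are therefore a description, and the numbers of them past the threshold in cold, given below beside those of all genes, support nothing.

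RNA was sequenced from the BAT of 23 male mice on a mainly C57BL/6 background, 8 to 12 weeks of age. All mice were homozygous for an Mcu allele with loxP sites around exon 2 (Mcu[fl/fl]). This line came from embryonic stem cells of mixed background and was crossed to C57BL/6J, short of full homogeneity. The BAT-Mcu-KO mice, called KO mice from here on, also carried the Ucp1-Cre transgene (Mcu[fl/fl];Ucp1-Cre), in which the promoter of Ucp1 drives Cre in brown adipocytes, and the control mice did not carry it. There were 6 control mice at RT, 5 control mice at 4°C, 6 KO mice at RT and 6 KO mice at 4°C. The mice were exposed to RT or to 4°C for 6 h, and those at 4°C were housed alone and without bedding. In the general protocol food was withheld from mice at 4°C unless stated otherwise, and the feeding of the mice at RT is not given in the sources used here, so that cold, single housing and loss of food cannot be told apart.

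Cells build phosphatidylcholine from choline by the CDP-choline (Kennedy) pathway. Choline enters through transporters such as Slc44a1, choline kinase (Chka and Chkb) phosphorylates it, the cytidylyl transferase Pcyt1a joins the product to CTP, and a phosphotransferase moves phosphocholine onto diacylglycerol. A parallel branch with ethanolamine kinase (Etnk1) and the cytidylyl transferase Pcyt2 leads to phosphatidylethanolamine. Cept1 can carry out the last step of both branches, and Pemt, best known from liver, turns phosphatidylethanolamine into phosphatidylcholine by methylation. In brown adipocytes these phospholipids form the membranes of the abundant mitochondria and the surface of the lipid droplets.

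The promoters of the choline kinases and of ethanolamine kinase are printed first, because these 3 genes catalyse the same kind of reaction. Among the 13 windows available for 7 of the 8 genes, theirs also hold the most copies of the core of the cAMP response element (TGACG) or a CCAAT box. Each window runs from 250 bases before to 50 bases after the RefSeq transcription start, on GRCm38.p6 and on the strand of the gene, 5′ to 3′. Capitals mark TGACG or CCAAT, or their reverse complements CGTCA and ATTGG. Chka lies on the plus strand at chr19:3851523-3851822, Chkb on the minus strand at chr15:89429878-89430177 and Etnk1 on the plus strand at chr6:143166980-143167279.
Chka: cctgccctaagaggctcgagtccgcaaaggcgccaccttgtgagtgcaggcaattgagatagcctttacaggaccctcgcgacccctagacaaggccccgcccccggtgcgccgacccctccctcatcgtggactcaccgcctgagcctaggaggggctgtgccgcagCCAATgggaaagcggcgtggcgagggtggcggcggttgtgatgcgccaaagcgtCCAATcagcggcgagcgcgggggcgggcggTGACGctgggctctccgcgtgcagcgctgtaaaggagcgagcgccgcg
Chkb: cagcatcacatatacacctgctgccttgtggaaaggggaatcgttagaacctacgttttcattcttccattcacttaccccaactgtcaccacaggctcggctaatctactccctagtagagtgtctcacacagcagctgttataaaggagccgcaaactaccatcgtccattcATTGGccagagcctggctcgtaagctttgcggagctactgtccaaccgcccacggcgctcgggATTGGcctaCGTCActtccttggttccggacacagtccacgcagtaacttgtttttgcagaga
Etnk1: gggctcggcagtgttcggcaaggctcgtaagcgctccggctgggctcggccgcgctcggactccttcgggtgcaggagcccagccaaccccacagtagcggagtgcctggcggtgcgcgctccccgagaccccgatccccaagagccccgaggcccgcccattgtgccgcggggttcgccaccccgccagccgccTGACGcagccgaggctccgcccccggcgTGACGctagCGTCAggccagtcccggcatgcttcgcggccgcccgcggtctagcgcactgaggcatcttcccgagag

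Chka and Chkb each had 2 CCAAT boxes and 1 core of the cAMP response element. In Chka the CCAAT boxes began 82 and 28 bases before the start site, and the TGACG at the base numbered 3 after it. In Chkb the ATTGG copies began 76 and 13 bases before the start, and CGTCA 4 bases before it. Etnk1 had no CCAAT but 3 cores, beginning 55, 27 and 18 bases before the start. Of 32851 promoter windows of the same length, searched on both strands, 20.8% held TGACG and 37.4% held CCAAT. Among the 13 windows of the 7 genes with an entry (all but Pcyt2), 4 held TGACG and 4 held CCAAT. The full element TGACGTCA, which contains TGACG, was in 0 of these 13 and in 1.79% of all windows. The ATF4 and C/EBP composite element TGATGNAA was also in 0 of the 13, against 3.97% of all. The letters GGGCGG (GC box) were in 9 of the 13 and in 35.7% of all. Some windows of the same gene overlap and hold the same copies, such as the 2 of Slc44a1 that start at 53440163 and 53440166. The 13 windows are therefore not independent, and nothing is read from these shares. These are matches of letters and no measurement of binding.

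The libraries held 7129271 to 21006347 reads, recovered from the normalized counts, and depth did not differ detectably between the groups of any comparison (exact permutation tests, two-sided, p of 0.251 to 0.903). Mcu, the deleted gene, had a mean normalized count of 110 in control mice at RT and 35.1 in KO mice, and every KO mouse was below every control mouse at both temperatures. Ucp1, the marker of brown adipocytes, rose from a mean of 63859 at RT to 165205 at 4°C in control mice and from 56907 to 157765 in KO mice, and none of the 8 brown adipocyte markers was at 0 in any mouse. The 8 did not move together: by cold 3 were called higher and 3 lower in control mice, and 2 higher and 1 lower in KO mice. Of all genes, 23.7% were called lower in control and 21.9% in KO mice, with the shares called higher given below. Prdm16 had means of 535 at RT and 326 at 4°C in control mice, and of 487 and 289 in KO mice. The summed level of 8 skeletal muscle markers ran from 7.47 to 46130 between libraries, and at least 1 of the 8 markers was at 0 in some mouse of every group. The sum of 6 endothelial markers was 2962 to 4452 at RT and 5291 to 9891 at 4°C. The rise did not hold for each marker: 3 of the 6 were called higher and 0 lower in each genotype. Over all genes 22.3% were called higher in control and 21.4% in KO mice. Tek, among those not called, had means of 474 at RT and 472 at 4°C in control mice. The sum of 6 macrophage markers was 631 to 943 at RT and 743 to 1125 at 4°C in control mice. In KO mice it was 457 to 863 at RT and 993 to 1289 at 4°C. Of these 6 markers, 1 was called higher in control and 4 in KO mice, and 0 were lower. The part of these other cell types in the cold values below was not tested beyond a fit with the muscle sum as a covariate, which called as many of the 8 genes in each comparison. In bulk tissue a change in the number of cells of a type and a change in RNA per cell cannot be told apart.

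Chka, choline kinase alpha, stood out by its change in cold. In control mice at RT its normalized counts were 79.8, 90.2, 81.2, 104, 116 and 93.4, and at 4°C they were 581, 590.3, 648, 735 and 645. In KO mice they were 136, 100.1, 104, 135, 116 and 93.8 at RT, and 608, 490.1, 577, 621, 383 and 362 at 4°C. Every cold mouse of each genotype was above every RT mouse, and the lowest cold mouse of all, at 362, was still above the highest RT mouse, at 136. The mean went from 94.1 ± 13.96 (SD, n = 6) to 640.0 ± 61.6 (n = 5) in control mice, a ratio of 6.80, and from 114 ± 18.2 to 507 ± 114 in KO mice (n = 6 each), a ratio of 4.43. On the scale of log2(normalized count + 1) these differences were 2.76 ± 0.14 (SE) and 2.12 ± 0.14. These values rested on 83 to 158 reads per mouse at RT and on 287 to 1001 reads at 4°C.

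Chkb, choline kinase beta, whose deficiency in mice is known to cause a muscular dystrophy, was far more abundant and changed less. In control mice it ran from 1285 to 1775 at RT with a median of 1649, and at 4°C it was 2757, 2205, 2286, 2124 and 2127. In KO mice it ran from 1339 to 1694 with a median of 1538 at RT and from 2230.5 to 2473 with a median of 2373 at 4°C. The groups did not overlap in either genotype, as for Chka. The log2 difference was 0.52 ± 0.09 in control and 0.62 ± 0.08 in KO mice, ratios of means of 1.43 and 1.54.

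Levels of different genes were compared per kilobase of exon. In control mice at RT, Chkb was the highest of the 8 genes, at 525 ± 59.0 normalized counts per kilobase, and Chka the lowest, at 7.83 ± 1.16 (SD, n = 6 each). Pcyt2 followed Chkb at 385 ± 33.3, with ranges that just met (337 to 423 against 420 to 580), then came Cept1 at 161 ± 25.7 and Pcyt1a at 102 ± 14.4. Slc44a1 (41.2 ± 5.25), Pemt (37.0 ± 8.52) and Etnk1 (36.8 ± 6.28) did not differ beyond their spread. At 4°C Chka, at 53.2 ± 5.13 in control mice, had passed Slc44a1 (32.4 ± 6.48) and Pemt (28.6 ± 6.52) and lay within the spread of Etnk1 (56.1 ± 8.04). Its share of choline kinase transcripts, Chka over the sum of Chka and Chkb per kilobase, was 1.20% to 2.25% in control mice at RT and 5.09% to 8.10% at 4°C. In KO mice the share was 1.54% to 2.51% at RT and 3.77% to 6.20% at 4°C. With the length of the longest transcript in place of all exons, the mean shares were 3.06% and 12.9% in control mice and 3.81% and 10.1% in KO mice, and Pcyt2 took the place of Chkb as the highest gene.

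**Figure D1:**
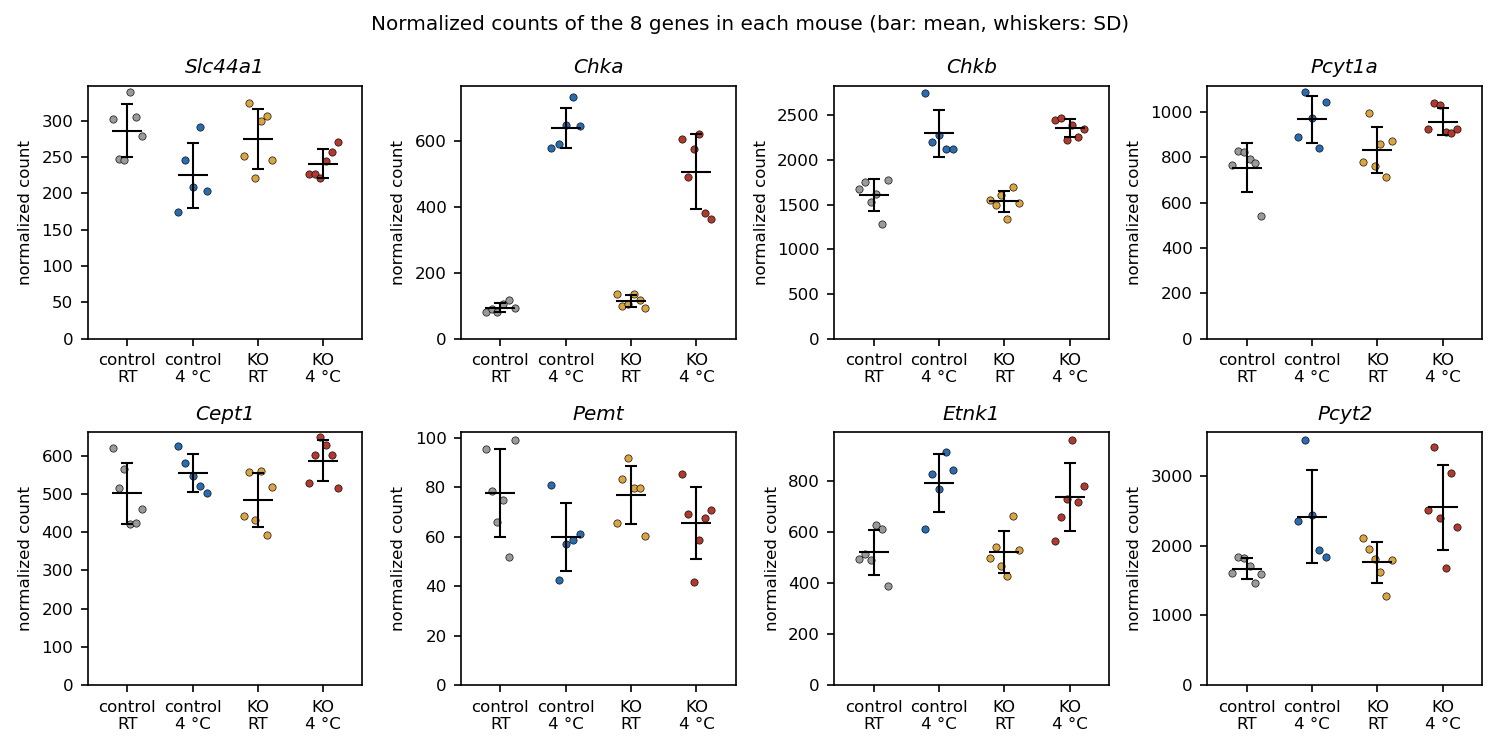
Normalized counts of each of the 8 genes (vertical axes, starting at 0) in each of the 23 mice (points), by group, with the mean (bar) and SD (whiskers). In the Chka panel all 11 cold mice, from 362 to 735, lie above all 12 mice at RT, from 79.8 to 136, while Cept1 and Pemt overlap between the temperatures.

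**Figure D2:**
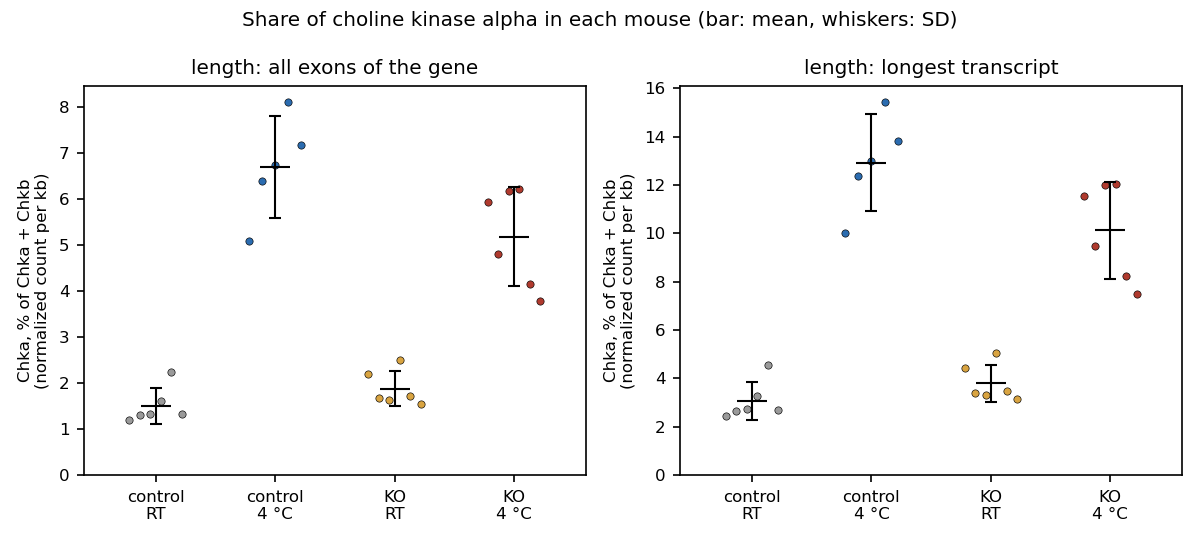
Share of Chka in the sum of Chka and Chkb, in percent of normalized counts per kilobase (vertical axes), in each mouse (points) with mean (bar) and SD (whiskers), with all exons (left) or the longest transcript (right) as gene length. The share is higher in every cold mouse than in any RT mouse under both lengths, and its size depends on the length used.

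Chkb shares exon bases with other genes, and how reads on such bases were counted is not given in the sources used here. They may have been left out of its count or assigned to it. The values of Chkb per kilobase above, and the share of Chka, use its full length and so depend on this. The authors counted on GENCODE M7, and whether M7 holds the overlaps described next was not checked. On GRCm38 (GENCODE M21) Chkb lies on chromosome 15 from 89426360 to 89429908 on the minus strand, and 57.6% of its exon bases are shared with other genes. Of these bases, 1552 lie in Gm44502, a gene model on the same strand that spans Chkb and Cpt1b, and 320 in C730034F03Rik on the opposite strand, and counting was irrespective of strand. Neither measured neighbour was called by cold. Cpt1b, the muscle form of carnitine palmitoyltransferase, had log2 differences in cold of -0.09 and -0.03, and C730034F03Rik had -0.35 and 0.28, in control and KO mice. Chka, on the plus strand of chromosome 19 from 3851773 to 3894369, shares 1.99% of its exon bases with other genes.

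The remaining genes of the choline branch changed less. Slc44a1, a choline transporter of the plasma membrane and of mitochondria, ran from 245 to 339 with a median of 291 in control mice at RT, and was 174, 246, 209, 291 and 204 at 4°C. In KO mice it spanned 221 to 325 at RT, with a median of 276, and 220.5 to 270.3 in the cold, with a median of 235. The groups overlapped in both genotypes, and the log2 differences were -0.36 ± 0.13 and -0.18 ± 0.12. Pcyt1a, the enzyme often taken as rate-limiting for phosphatidylcholine synthesis, spanned 543 to 828 in control mice at RT, with a median of 784, and was 892, 1088, 973, 842 and 1046 at 4°C, without overlap. In KO mice the range of 715 to 998 (median 820.5) at RT overlapped that of 910 to 1039 (median 925) at 4°C. Its log2 differences were 0.37 ± 0.10 in control and 0.21 ± 0.10 in KO mice.

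In the ethanolamine branch both genes were higher at 4°C. Etnk1 spanned 387 to 628 in control mice at RT, with a median of 503, and was 613, 829, 767, 915 and 843 at 4°C. In KO mice it spanned 426 to 665 at RT, with a median of 514, and 565 to 961 in the cold, with a median of 725. In each genotype 4 cold mice were above every RT mouse, and the log2 differences were 0.61 ± 0.14 and 0.49 ± 0.13. Pcyt2, the regulated step of this branch, spanned 1464 to 1838 in control mice at RT, with a median of 1661, and was 2359, 3516, 2439, 1939 and 1839 at 4°C, the lowest of which was within 2 counts of the highest RT mouse. In KO mice it spanned 1274 to 2109 at RT, with a median of 1804, and 1680 to 3421 in the cold, with a median of 2458, with 5 of 6 cold mice above every RT mouse. The log2 differences of Pcyt2 were 0.50 ± 0.16 and 0.52 ± 0.15. Among the cold groups Pcyt2 varied most between mice of the 8 genes, with a coefficient of variation of 27.5% in control and 23.9% in KO mice.

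Cept1 and Pemt overlapped between the temperatures in both genotypes. Cept1 spanned 421 to 620 in control mice at RT, with a median of 489, and was 625, 583, 546, 521 and 504 at 4°C. In KO mice it spanned 394 to 560 at RT, with a median of 481, and 516 to 649 in the cold, with a median of 602. Its log2 differences were 0.16 ± 0.11 and 0.29 ± 0.11. Of its exon bases 24.9% are shared with other genes, 771 of them with Dennd2d on the opposite strand, and Dennd2d fell in cold by 1.25 and 1.69 on the log2 scale. Pemt was the least abundant of the 8 genes before correction for length. It spanned 51.8 to 99.3 in control mice at RT, with a median of 76.8, and was 80.9, 42.5, 57.3, 58.8 and 60.9 at 4°C. In KO mice it spanned 60.2 to 92.1 at RT, with a median of 79.8, and 41.5 to 85.4 in the cold, with a median of 68.3. Its log2 differences were -0.36 ± 0.19 and -0.24 ± 0.18, and it rested on 26 to 130 reads per mouse.

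A gene was called at an adjusted p under 0.05 in limma, over all 14651 genes. These calls come from the fit over the whole table and serve to set the 8 genes beside all genes, not as a test of the 8. In control mice 6 of the 8 genes were past the threshold in the cold comparison: Chka, Chkb, Pcyt1a, Etnk1 and Pcyt2 were higher and Slc44a1 was lower. Of all genes 46.0% passed, 22.3% higher and 23.7% lower (3269 and 3466 genes). With 75th percentile scaling 2644 genes were higher and 4281 lower in control mice, and of the 8 genes 5 were higher and 2 lower, Pemt being the second. In KO mice 5 of the 8 were past it, all higher: Chka, Chkb, Cept1, Etnk1 and Pcyt2. Of all genes 43.3% passed there, 21.4% higher and 21.9% lower. The groups did not overlap for 4 of the 8 genes in control mice (25.2% of all genes) and for 2 of the 8 in KO mice (24.2% of all genes). The median log2 difference of the 8 genes was 0.43 in control and 0.39 in KO mice, beside -0.02 over all genes in each. Nothing is read from these counts, because the set was chosen with values of the same comparisons known. The call of Slc44a1 in control mice was lost without control RT mouse 4, control 4°C mouse 1 or control 4°C mouse 5, with log2 differences of -0.31, -0.27 and -0.33. The call of Pcyt2 in control mice was lost without control 4°C mouse 2, at 0.35, and with quantile normalization, at 0.31, which also took the call of Pcyt1a, at 0.23. In KO mice quantile normalization took the calls of Pcyt2 and Cept1, at 0.35 and 0.22, and 75th percentile scaling that of Cept1, at 0.24. The call of Cept1 was also lost without KO RT mouse 1, 3 or 5 or KO 4°C mouse 2, 3, 4 or 5, each left out alone, at 0.23 to 0.28. Pcyt1a passed in KO mice without control RT mouse 6 or KO RT mouse 2, at 0.21 and 0.26, and Pemt passed in control mice without control RT mouse 5, at -0.47.

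**Figure D3:**
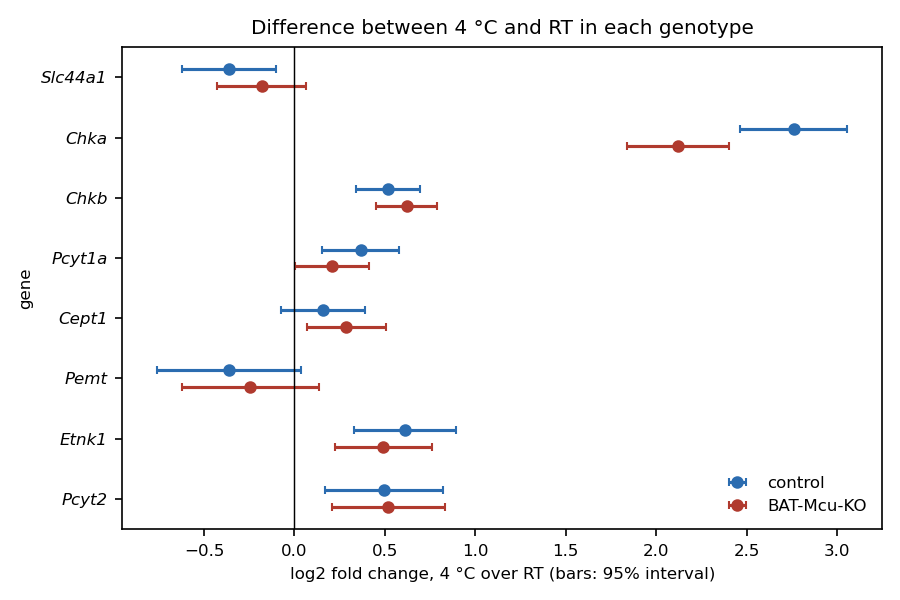
Log2 fold change of 4°C over RT for each of the 8 genes (horizontal axis) with its 95% interval, in control (blue) and KO mice (red). Chka lies at 2.76 and 2.12, apart from the other 7 genes, which lie between -0.36 and 0.62.

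The comparison of genotypes asks whether these genes differ between KO and control mice. All KO mice and no control mice carried the Ucp1-Cre transgene, so that loss of Mcu and the transgene cannot be told apart. At RT 0 of the 8 genes passed the test in limma, against 0.0478% of all genes, and 0 of the 8 passed at an unadjusted p under 0.05. At 4°C 0 of the 8 passed, against 0.0751% of all genes, and 1 of the 8, Chka, had an unadjusted p under 0.05. DESeq2 and edgeR on the recovered reads also called 0 of the 8 at both temperatures. The groups of the 2 genotypes overlapped for all 8 genes at RT and at 4°C, where 0.218% and 0.683% of all genes did not overlap. Apart from Chka, the log2 differences between KO and control mice ran from -0.06 (Slc44a1) to 0.15 (Pcyt1a) at RT and from -0.11 (Etnk1) to 0.12 (Pemt) at 4°C.

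The intervals of these differences show what size the data can bound. For Chkb the difference between genotypes was -0.06 at RT (95% interval -0.23 to 0.11) and 0.04 at 4°C (-0.13 to 0.22). For Pcyt1a it was 0.15 (-0.06 to 0.35) at RT and -0.01 (-0.23 to 0.20) at 4°C. Pemt had the widest intervals, -0.38 to 0.38 at RT and -0.28 to 0.52 at 4°C. A miss of the threshold does not show that the genotypes had the same level.

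Chka differed most between the genotypes among the 8 genes. At RT its mean was 114 in KO and 94.1 in control mice, and 3 of 6 KO mice exceeded all control mice. The log2 difference was 0.28 (95% interval -0.01 to 0.56, limma, unadjusted p = 0.0572, adjusted p = 0.940). At 4°C the order was the opposite, with a mean of 507 in KO and 640.0 in control mice, and 4 of 6 KO mice fell short of all control mice. The log2 difference was -0.36 (-0.66 to -0.07, limma, unadjusted p = 0.0189, adjusted p = 0.617). The 2 lowest cold KO mice, at 383 and 362, were mice 5 and 6. Across the alternatives the difference at 4°C ran from -0.43 to -0.27 and its adjusted p from 0.399 to 0.831.

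The interaction, the cold change in KO minus that in control mice, was tested in the same model. It was -0.64 ± 0.20 (SE) for Chka (95% interval -1.05 to -0.23), with an unadjusted p of 0.00376 and an adjusted p of 0.761 in limma. Both cold folds of Chka were known when the gene was chosen. The difference ran from -0.70 to -0.55 over the alternatives, with adjusted p from 0.230 to 0.895, and it never passed. For the other 7 genes it ran from -0.16 (Pcyt1a) to 0.18 (Slc44a1). In limma 0 of the 8 genes and 0% of all genes passed for the interaction, while 878 genes, 5.99% of all, had an unadjusted p under 0.05. DESeq2 called 28 genes and edgeR 0, none of them among the 8 genes.

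**Figure D4:**
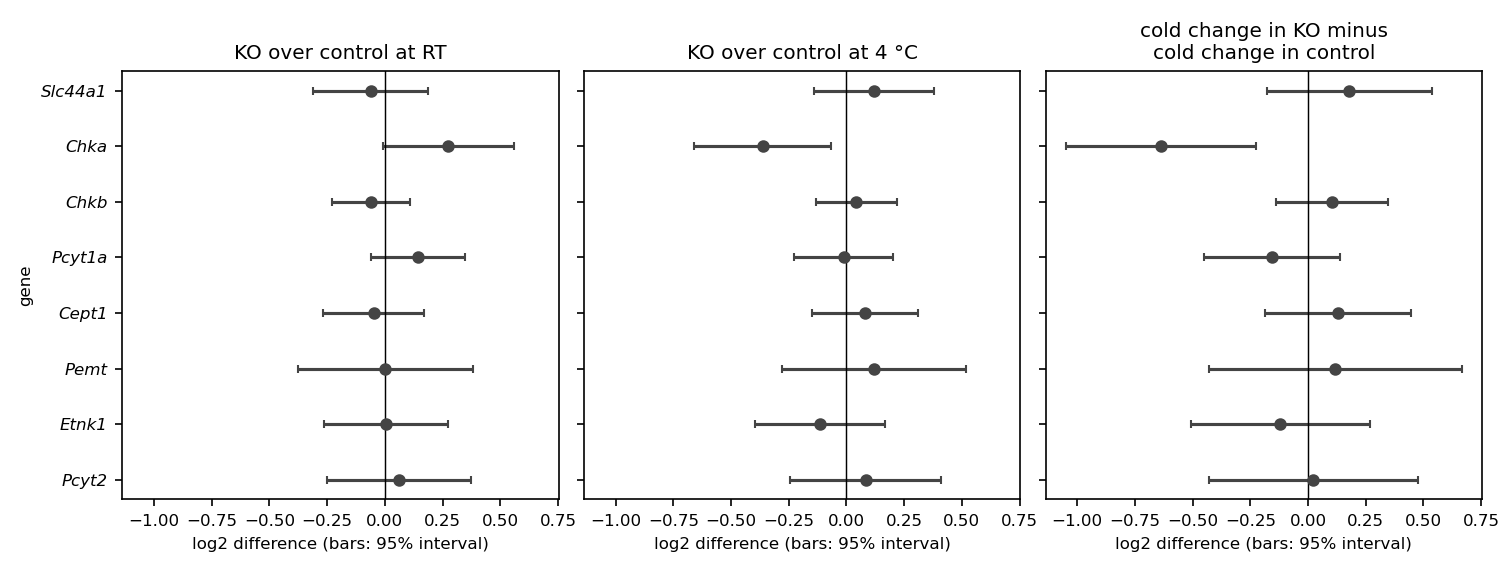
Log2 difference between KO and control mice at RT (left) and at 4°C (middle), and the difference of the cold changes (right), for the 8 genes with 95% intervals (horizontal axes). Only the intervals of Chka at 4°C and in the right panel leave out 0, and neither passed the test over all genes.

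Other genes of choline and ethanolamine metabolism were taken from a list of 9 groups of genes, of which 48 genes were in the table. In cold, 32 of the 48 passed in control mice (14 higher, 18 lower) and 35 in KO mice (16 higher, 19 lower), by limma over all genes. That is 66.7% and 72.9% of the 48, beside 46.0% and 43.3% of all genes. The list was written with earlier results of these data known, so these shares are a description and nothing is read from their size. The median log2 difference of the 48 was -0.08 and -0.16. Of the 48, 12 were higher and 17 were lower in both genotypes. By genotype at RT, by genotype at 4°C and in the interaction 0 of the 48 passed, with 3, 5 and 1 at an unadjusted p under 0.05, and DESeq2 and edgeR also called 0. Most genes named in the following paragraphs were picked for the smallest p by cold in their group. Their p-values in cold therefore describe them and are no test of the group.

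Ept1 and Chpt1 are the phosphotransferases that carry out the last step of only 1 branch each, beside Cept1, which serves both. Ept1, the ethanolaminephosphotransferase now named Selenoi, went from a mean of 283 ± 32.3 (SD, n = 6) to 510.3 ± 94.99 (n = 5) in control mice and from 277 ± 18.5 to 512 ± 68.9 in KO mice, with no overlap. Its log2 differences were 0.83 ± 0.12 (limma, adjusted p = 3.83e-06) and 0.87 ± 0.12 (adjusted p = 1.03e-06). Chpt1, the choline phosphotransferase, which is named here after its values were seen, had log2 differences of 0.11 (adjusted p = 0.447) and 0.03 (0.855) in limma at a mean of 6289 to 6864, and the second of these turned negative with quantile or 75th percentile scaling. The difference between the 2 genes was not tested. Ptdss2, a phosphatidylserine synthase that uses phosphatidylethanolamine, was the most abundant of the 3 genes of phosphatidylserine exchange and decarboxylation. It had log2 differences of 0.32 (adjusted p = 0.0256) and 0.18 (adjusted p = 0.191) in limma, and the call of the first was lost under several alternatives. It was 0.14 with quantile normalization and 0.21 with 75th percentile scaling, with an adjusted p of up to 0.348 in limma, and it also missed the threshold with only the compared groups. It was 0.25 to 0.30 without control RT mouse 1 or 6 or without control 4°C mouse 2 or 3.

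The group of sphingomyelin synthesis held 3 genes, and all 3 rose in cold in each genotype, beside 22.3% and 21.4% of all genes called higher in control and KO mice. Sgms1 and Sgms2 are sphingomyelin synthases, which take the phosphocholine group from phosphatidylcholine. Samd8, a related enzyme that makes ceramide phosphoethanolamine, is not one of them. Sgms1 went from 502 ± 85.8 to 1549 ± 91.8 in control mice and from 523 ± 81.1 to 1383 ± 223 in KO mice. The limma log2 differences were 1.64 (adjusted p = 8.14e-11) and 1.40 (adjusted p = 5.56e-10). Sgms2 was low, with RT means of 12.5 and 19.1 and cold means of 49.5 and 37.0. Its differences were 1.90 and 0.94 (limma, adjusted p = 9.97e-08 and 0.000612), and the difference between them had an unadjusted p of 0.00385 and an adjusted p of 0.761. Samd8, named after its values were seen, changed less, by 0.32 and 0.31 (limma, adjusted p = 0.00777 and 0.00791), and its call in control mice was lost with quantile normalization and with 75th percentile scaling, at 0.22 and 0.21.

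Of the 6 genes listed for choline oxidation, which leads choline away from phospholipids towards betaine, 3 were in the table. Of these, 2 fell in cold in control mice and 3 in KO mice, beside 23.7% and 21.9% of all genes called lower. Chdh, choline dehydrogenase, the first enzyme of this route in mitochondria, went from 442 ± 121 to 145 ± 28.5 in control mice and from 542 ± 85.5 to 176 ± 42.0 in KO mice, with no overlap. The log2 differences were -1.58 and -1.64 (limma, adjusted p = 1.64e-07 and 4.90e-08). Sardh, sarcosine dehydrogenase, fell by 0.89 and by 0.94 on the log2 scale (limma, adjusted p = 0.000127 and 4.08e-05). Aldh7a1, which oxidizes betaine aldehyde and is named after its values were seen, had log2 differences of -0.23 and -0.35 (limma, adjusted p = 0.190 and 0.0385). Its call in KO mice was lost without a variance trend and without KO RT mouse 1, 3 or 6 or KO 4°C mouse 1, 2, 3 or 4, each left out alone, at -0.36 to -0.30.

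Breakdown genes moved in both directions, with 5 higher and 8 lower of 18 in control mice and 5 higher and 7 lower in KO mice. Of all genes, 22.3% were called higher and 23.7% lower in control mice, and 21.4% and 21.9% in KO mice. Phospho1, a phosphatase of phosphocholine and phosphoethanolamine, went from 20.4 ± 5.22 to 114 ± 24.8 in control mice and from 12.8 ± 7.75 to 96.2 ± 25.3 in KO mice. Its log2 differences were 2.43 and 2.92 (limma, adjusted p = 6.04e-08 and 1.27e-09). Gdpd5, a glycerophosphodiesterase known to act on glycerophosphocholine, fell by 1.83 and by 1.91 on the log2 scale (limma, adjusted p = 7.83e-08 and 1.85e-08), from means of 164 and 180.3 to 44.9 and 48.1.

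Of the 3 transport genes measured, 0 were higher in cold, and 2 were lower in control and 3 in KO mice. Beside them, 23.7% and 21.9% of all genes were called lower. Slc44a3, of the choline transporter-like family of Slc44a1, fell by 0.78 and by 1.20, and Slc22a2, an organic cation transporter, fell by 1.97 and by 1.21 on the log2 scale (limma, adjusted p of 5.45e-06 to 0.00225). Slc22a2 was low, at a mean of 54.7 and 50.3 at RT. In the supply of methyl groups Mat2a, which makes the methyl donor S-adenosylmethionine used by Pemt, rose by 0.69 and 0.63, and Ahcyl2, a relative of S-adenosylhomocysteine hydrolase, fell by 0.81 and by 0.74 (limma, adjusted p of 7.51e-05 to 0.000224). The 5 genes of this group were 1 higher and 2 lower in control mice, and 2 higher and 2 lower in KO mice. Over all genes 22.3% were called higher and 23.7% lower in control mice, and 21.4% and 21.9% in KO mice.

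Of the 5 genes that supply CTP, 2 were higher and 1 lower in control mice, and 3 were higher and 1 lower in KO mice. Cmpk1, the kinase of UMP and CMP, rose by 0.35 and 0.36, and Nme1, a nucleoside diphosphate kinase, by 0.32 and 0.45 (limma, adjusted p of 0.000337 to 0.00977), and the call of Nme1 in control mice was lost with quantile or 75th percentile scaling. Of the 6 genes of acyl chain remodelling, 1 was higher and 3 were lower in control mice, and 2 were higher and 3 lower in KO mice. Beside both groups, 22.3% of all genes were called higher and 23.7% lower in control mice, and 21.4% and 21.9% in KO mice. Agpat3, an acyltransferase of lysophosphatidic acid, rose by 0.38 and 0.46 from means of 4633 and 4485. Lpcat1, an acyltransferase of lysophosphatidylcholine, fell by 1.15 and by 0.77 from means of 41.1 and 39.1 (limma, adjusted p of 3.67e-06 to 0.0179 for these 2 genes). The call of Lpcat1 in KO mice was lost without KO RT mouse 1 or with quantile normalization, at -0.62 and -0.61.

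**Figure D5:**
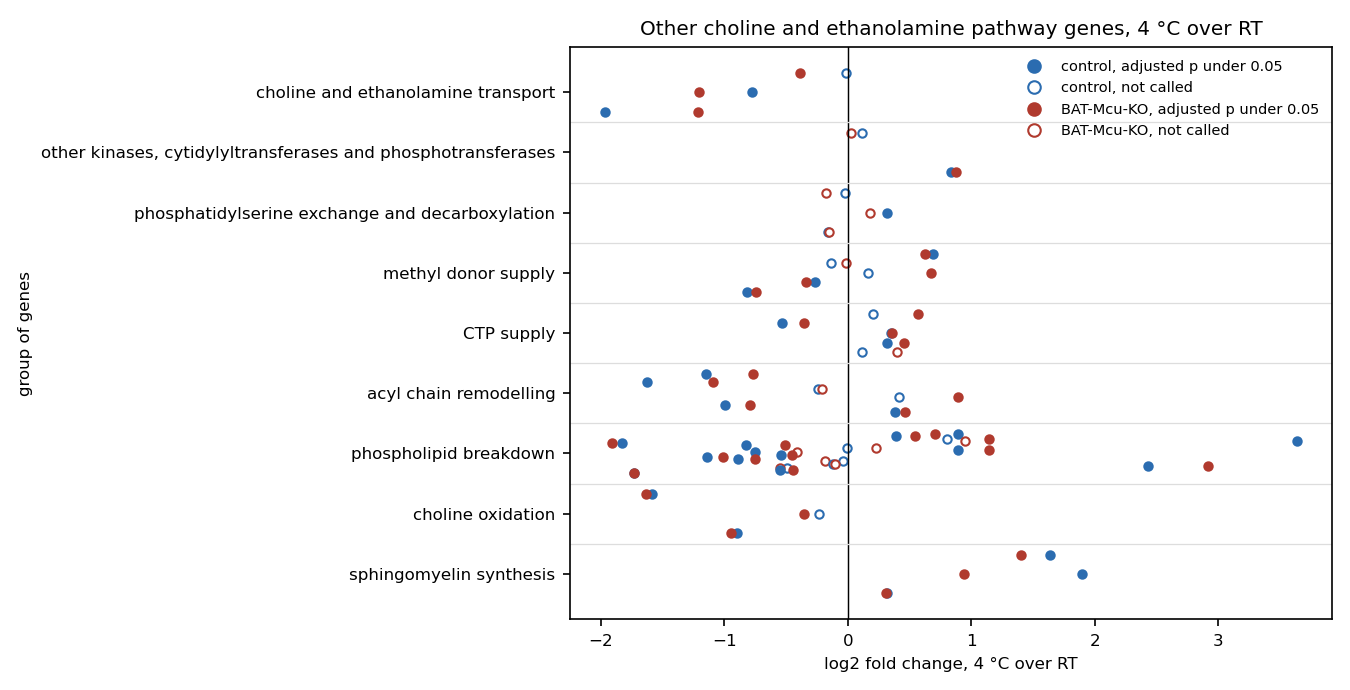
Log2 fold change of 4°C over RT (horizontal axis) of the 48 other pathway genes in 9 groups, in control (blue) and KO mice (red), filled where the adjusted p was under 0.05. The 3 genes of the sphingomyelin synthesis group, which includes the related Samd8, lie to the right of 0 in both genotypes. The 3 choline oxidation genes lie to the left in both, Aldh7a1 in control mice without passing the test.

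The genes whose pattern was most like that of Chka over the 23 mice were Bag3 (Pearson r = 0.989), Plk3 (0.980), Hacd2 (0.980), Socs4 (0.979) and Rbm47 (0.978), on log2(normalized count + 1). Bag3 is a co-chaperone, Plk3 a polo-like kinase, Hacd2 a dehydratase of fatty acid elongation, Socs4 a suppressor of cytokine signalling and Rbm47 an RNA-binding protein. All 5 were higher in cold in every mouse, with log2 differences from 1.58 (Socs4) to 6.02 (Plk3) in control and from 1.22 to 5.54 in KO mice. Mice at RT and at 4°C form separate clusters, and these r values include the difference between them. On deviations from the group means the r of the 5 genes ran from 0.492 (Plk3) to 0.703 (Bag3). There the leading gene was Ggnbp2 (r = 0.856), with an r of 0.939 on the values. The 7 other phospholipid synthesis genes had an r with Chka from -0.57 (Slc44a1) to 0.87 (Chkb) on the values and from -0.35 (Pcyt2) to 0.14 (Etnk1) on the deviations. The points share library and depth.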

How the data were processed

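RNA of the BAT of 23 mice had been made into Smart-seq2 libraries. Reads were aligned by the authors to mm10 (GENCODE M7) with STAR 2.4.0j, unique exonic reads were counted with HTSeq irrespective of strand, and each sample was divided by its DESeq2 size factor. The signal deposited by the authors is this table of normalized counts, with 14651 genes that each had at least 8 reads in at least 6 samples. A further deposited table of the authors' DESeq2 comparisons (fold changes, p-values and adjusted p-values) was not used. Columns of samples left out numbered 0. Divided by the smallest step in its column, 100.0% of the values in each sample were whole within 0.1, and these whole numbers are the reads. No pair of libraries of a group agreed within sampling noise (chi-square per degree of freedom of 8.88 to 63.8 over 55 pairs). Read numbers give counting error only, since PCR copies are not independent molecules.

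Limma (version 3.58.1, R version 4.3.3) was fitted to log2(normalized count + 1) with a variance trend, 4 group means and all 23 samples. p-values were adjusted by the Benjamini-Hochberg method over all genes, at a threshold of 0.05. On simulated counts of 14651 genes with cold changes, limma found 92 of 100.0 genes changed 2-fold and 49 of 100.0 changed 1.5-fold in control mice, with 14 false calls. Only these genes were changed, whereas 46.0% of all genes were called by cold in control mice in the data. The changed genes also had a mean of at least 100. The shares found therefore do not carry over to the data or to lower genes. Alternatives were pseudocounts of 0.5 and 10.0, filters at a mean of 50.0 or at 8 in every sample, quantile and 75th percentile scaling, no trend, only the compared groups, the replicate block, DESeq2 (version 1.42.0) and edgeR (version 4.0.16) on these reads, and leaving out mice 1 at a time. A muscle covariate was added after seeing the data. The fold changes are on the log2 scale with the pseudocount, which understates the change of low genes.

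The members and the lists were chosen with earlier results of these data known. Named genes were the 8 members, up to 2 genes per pathway group called by cold in the same direction in both genotypes (those with the smallest larger p, or the most abundant gene where there was none), the 5 genes most like Chka, Mcu and Ucp1, and neighbours within 1 kb. The marker lists gave calls by cold in control and KO mice for 6 and 3 of 8 brown adipocyte, 0 and 0 of 8 skeletal muscle, 1 and 4 of 6 macrophage, 3 and 3 of 6 endothelial, and 1 and 2 of 5 Schwann cell and nerve genes. Of all genes, 46.0% and 43.3% were called. The brown adipocyte calls were 3 higher and 3 lower in control mice, and 2 higher and 1 lower in KO mice. All macrophage and endothelial calls were higher, and all Schwann cell and nerve calls were lower. Gene positions and lengths come from GENCODE M21 on GRCm38, where 94.1% of symbols were found; M7 was not used here. Promoters come from RefSeq (GRCm38.p6). pandas (version 2.3.3), scipy (version 1.17.1) and matplotlib (version 3.10.9) were used.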

Additional observations from a re-analysis of the deposited data

Results flagged for a closer look

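In 7 of 128 groups of 5 or 6 mice, over 32 named genes, 1 mouse lay far from the others by Dixon's criterion, which chance gives in about 1 in 20 groups. Among the phospholipid synthesis genes these were Chkb in control mice at 4°C, where mouse 1 had a normalized count of 2757 and the next mouse 2286, and Pcyt1a in control mice at RT, where mouse 6 had 543 and the next mouse 764. Control RT mouse 6 was also the lowest for Ept1, with 219 against 286. The others were Ahcyl2 in control mice at RT (mouse 3, 565 against 439), Phospho1 in KO mice at RT (mouse 5, 27.9 against 13.8), Sgms2 in control mice at 4°C (mouse 2, 68.3 against 47.3) and Socs4 in control mice at 4°C (mouse 1, 364 against 483).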

How the results depend on the processing

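Of the 8 phospholipid synthesis genes, 6 were called by cold in control mice, with 4 to 7 over the alternatives (4 with quantile normalization, where Pcyt1a and Pcyt2 lost the call) and 5 to 7 with single mice left out. In KO mice 5 were called, 4 to 6 with single mice left out and 3 with quantile normalization, where Cept1 and Pcyt2 lost the call at 0.22 and 0.35. Of all genes, 46.0% in control and 43.3% in KO mice were called by cold in the main fit. These counts of the 8 genes support nothing, because the set was chosen with values of the same comparisons known. The 48 pathway genes gave 32 calls (26 to 33) and 35 (28 to 36). For genotype and interaction the counts stayed at 0 under every alternative. Scaling to the 75th percentile moved the median of all genes to -0.13 in cold in control mice, from -0.02.

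Differences near 0 turned sign. Pcyt1a by genotype at 4°C was 0.0166 with 75th percentile scaling and 0.0161 with the replicate block. Pemt by genotype at RT was -0.00089 with a pseudocount of 10, -0.0102 with quantile and -0.0272 with 75th percentile scaling, -0.0235 with DESeq2 and -0.0222 with edgeR. Etnk1 by genotype at RT was -0.0248 with quantile and -0.0240 with 75th percentile scaling, and Chpt1 by cold in KO mice was -0.0914 with quantile and -0.0220 with 75th percentile scaling. With single mice left out, these ranges crossed 0: Pcyt1a by genotype at 4°C -0.0610 to 0.0315, Cept1 by genotype at RT -0.0962 to 0.0153, Pemt by genotype at RT -0.108 to 0.0776, Etnk1 by genotype at RT -0.0770 to 0.0620, Pcyt2 by genotype at 4°C -0.00822 to 0.228, Pcyt2 in the interaction -0.0687 to 0.167 and Chpt1 by cold in KO mice -0.0232 to 0.0841. The causes were not tested.

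Mice with the same replicate number are different animals, and the correlations of their deviations over all genes ran from -0.20 to 0.22. Between the genotypes at 4°C all 5 were above 0, from 0.04 to 0.22 with a mean of 0.12. The other comparisons had means of -0.10 to -0.03. Whether mice of the same number shared a batch was not tested, and the main fit did not pair them. With the replicate block, 6 of the 8 genes were called by cold in control and 5 in KO mice, and 32 and 33 of the 48 pathway genes. The shares of all genes called in the main fit were 46.0% and 43.3%. The interaction of Chka with the replicate block was -0.59. With the longest transcript as length, Chka ranked 5 of 8 per kilobase in control mice at 4°C in place of 6. Of the 5 genes most like Chka, 1 was among the leading 5 by Spearman's rho and 0 by deviations from the group means.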
